A study of Mus musculus with 8 samples.

Results

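Elastic fibres are the extensible cables of the extracellular matrix, and the 10 genes described here encode their main building blocks. Fibrillins polymerise into beaded microfibrils, which microfibril-associated glycoproteins decorate and which serve as the scaffold on which elastin is laid down and cross-linked. Fibulins bridge elastin, microfibrils and cell surfaces, and latent TGF-beta binding proteins hold the growth factor TGF-beta in an inactive store on the same scaffold. Fibroblasts and smooth muscle cells are the classic producers of this matrix. The genes were taken by symbol (Mfap2, Mfap4, Mfap5, Fbn1, Fbn2, Eln, Fbln1, Fbln2, Fbln5 and Ltbp1) from the probe annotation of the array, and the set was chosen by measured values, namely the differences between these same groups in an earlier look at the arrays. Their values are therefore given as a description and not as a test. Of the 10 genes 9 had a probe among the 16590 genes on the array, through 20 probes in all, and Fbn1 had none. A probe passed the detection filter on 2 or more of the 8 arrays for 6 of them, Mfap2, Mfap4, Fbn2, Fbln1, Fbln2 and Ltbp1, which are among the 9502 genes tested.

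RNA was measured with Illumina bead arrays in Trp53-/- Dnmt1+/+ mouse embryonic fibroblasts (MEFs), cells without the tumour suppressor p53 that carry an intact gene for the maintenance DNA methyltransferase. One group was grown for 72 h with 5-aza-dC (decitabine), a nucleoside that is built into DNA and inactivates the methyltransferases there. Its dose was 1 µM per the labels, and the control group received DMSO for the same time. The study's methods name a lower dose, and which of them holds was not settled. Per group there were 2 biological replicates (n = 2), each read on 2 technical arrays, and the absence of Trp53 is shared by both groups. The background strain is given as unknown, and the study describes both groups as grown from a shared starting population of cells. Nothing says whether the replicates were separate cultures, and p-values then measure only the spread between these samples. Of the 25697 probes 12841 to 13595 were detected per array (detection p under 0.05), and precision is limited by how few arrays there are. Levels are normalised intensities on the log2 scale, and differences are 5-aza-dC minus control. The fibroblast label was checked against 9 markers, all of which were detected on all 4 control arrays and 8 of them on all 4 arrays of 5-aza-dC. Of these 9 markers 6 fell, 1 rose and 2 did not pass, and their summed level (normalised intensity) was 30760 to 36620 in control and 16960 to 19960 in 5-aza-dC. Of 5 epithelial markers on the array 3 rose (Krt8, Krt18 and Krt14), none was detected on all 4 control arrays and 4 were on all 4 arrays of 5-aza-dC, with a summed level of 116.9 to 119.6 against 1398 to 1455, while Krt5 was undetected throughout. Smooth muscle markers summed to 18860 to 19960 in control and 18450 to 19650 in 5-aza-dC, with Myh11 and Cnn1 undetected on every array. Of the 4 smooth muscle genes tested Tagln fell (log2 difference -1.31), Des and Smtn rose (0.60 and 0.59) and Acta2 did not pass (-0.01). Each sum counts the undetected genes of its list at their background level, so that low sums are in large part background. The endothelial list went from 137.6 to 137.7 in control to 146.9 to 148.7 in 5-aza-dC. Of its 6 genes 4 were undetected throughout (Cdh5, Kdr, Tek and Tie1), and Emcn, the 1 gene tested, rose (log2 difference 0.69). The macrophage and blood list went from 104 to 104.6 in control to 136.4 to 142.3, with Ptprc, Adgre1 and Itgam undetected and Cd68 and Csf1r not on the array. Cd14, the 1 gene of that list tested, rose (log2 difference 0.87). The cartilage and bone list went from 452.5 to 470.5 to 744.2 to 752.2, with Acan and Bglap undetected and Runx2 not on the array. Of its 3 genes tested Sox9 and Sp7 rose (1.31 and 0.59) and Col2a1 did not pass (-0.16). The part of these markers in the differences below was not tested, and in bulk RNA fewer cells of a type and less RNA per cell cannot be told apart.

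After 5-aza-dC the microfibril genes Mfap4 and Mfap2 were lower by 40.2-fold and 13.0-fold as measured, the largest differences among the members. Mfap4 was detected on 1 of the 4 treated arrays, and its fold was 17.0 with an offset of 50 and 16.9 with the deposited values. Fbln1 was 2.47-fold lower. Fbn2, undetected on the treated arrays, was at least 2.29-fold lower on the scale used here (offset 16) and 1.65-fold lower with an offset of 50, while Fbln2 differed by 1.39-fold in the same direction. Ltbp1 was the single member with a higher level, 1.77-fold. Mfap5, Eln and Fbln5 were undetected on every array of both groups, so that no difference can be given for them. In the fit across all genes 5 of the 6 tested members were called lower and 1 higher (limma, Benjamini-Hochberg adjusted p under 0.05), where 25.7% of all tested genes were called lower and 26.3% higher. Called differences of more than 2-fold were found for 4 members, all lower, where 7.98% of all tested genes were lower and 7.5% higher by that much. Of the 14 kept member probes 8 were more than 2-fold lower, against 7.43% of all kept probes. Because the genes were chosen with these differences known, nothing is read from these counts. The median log2 difference of the 6 was -1.33, or -1.25 with Fbn2 at its bound, against -0.02 over all genes tested. Members undetected in both groups could not enter these figures, and the filter keeps a gene that is detected in 1 group alone.

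**Figure D1:**
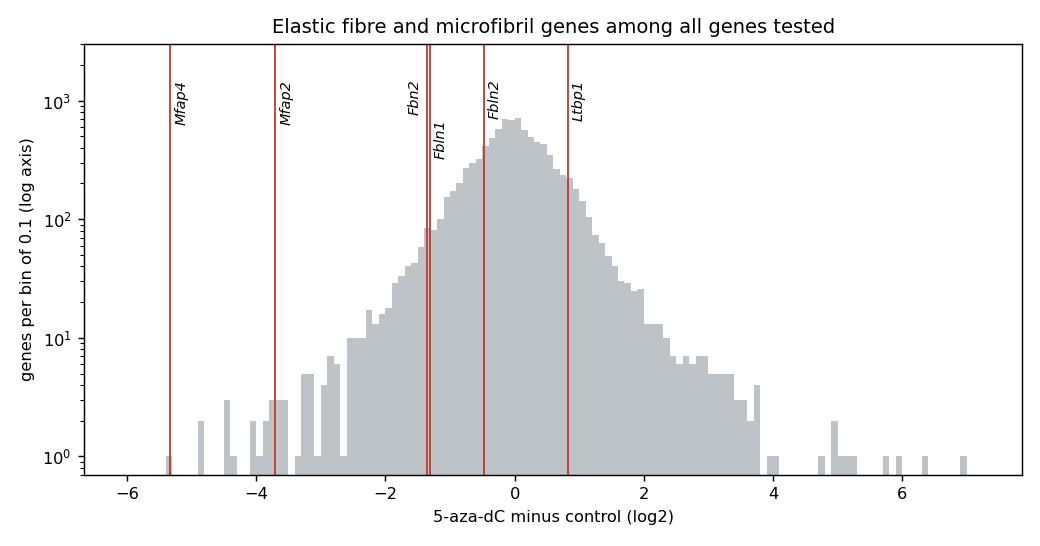
Log2 difference, 5-aza-dC minus control, on the x axis, and the number of genes per bin on a logarithmic y axis, for the 9502 genes tested. Red lines mark the 6 tested elastic fibre and microfibril genes, of which Mfap4 at -5.33 lies at the lower end of the whole distribution and Ltbp1 at 0.83 is the only one above 0.

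DNA around transcription starts was examined because 5-aza-dC acts on the enzymes that methylate CpG dinucleotides. From the RefSeq promoter table (GRCm38.p6) 10 windows were used, each from 250 bases before to 50 after a start, for 6 of the 10 genes. Windows on the chromosome of Fbn2 were left out for the members but kept in the values over all windows. Mfap4, Mfap5, Fbn2 and Eln had no window here. The bases before a start are shown for Mfap2 and Fbln1, which were lower. For Ltbp1, which was higher, they are shown at each start with a window. Each stretch runs 5′ to 3′ on the plus strand with every CpG in capitals. The stretches are chr4:141010174-141010423 for Mfap2 and chr15:85205699-85205948 for Fbln1. For Ltbp1 they are chr17:75005279-75005479 at the outer start and chr17:75178531-75178780 at the inner start. An annotated transcript of Ltbp1 begins ahead of that outer start, and the outer stretch was cut to end before it.
Mfap2: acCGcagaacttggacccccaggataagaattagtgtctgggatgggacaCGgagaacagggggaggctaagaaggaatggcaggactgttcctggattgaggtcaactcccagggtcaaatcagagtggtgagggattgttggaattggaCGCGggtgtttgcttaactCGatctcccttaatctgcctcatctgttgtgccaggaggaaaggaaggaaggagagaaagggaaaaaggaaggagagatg
Fbln1: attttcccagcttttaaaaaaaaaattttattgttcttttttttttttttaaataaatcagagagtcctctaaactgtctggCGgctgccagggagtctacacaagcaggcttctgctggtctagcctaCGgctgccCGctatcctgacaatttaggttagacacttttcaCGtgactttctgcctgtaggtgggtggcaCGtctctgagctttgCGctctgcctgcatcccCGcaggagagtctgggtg
Ltbp1 outer start: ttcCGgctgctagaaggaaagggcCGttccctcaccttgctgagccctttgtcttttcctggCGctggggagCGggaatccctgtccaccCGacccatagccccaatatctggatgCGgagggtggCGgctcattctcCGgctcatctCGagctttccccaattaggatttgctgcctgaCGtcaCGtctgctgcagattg
Ltbp1 inner start: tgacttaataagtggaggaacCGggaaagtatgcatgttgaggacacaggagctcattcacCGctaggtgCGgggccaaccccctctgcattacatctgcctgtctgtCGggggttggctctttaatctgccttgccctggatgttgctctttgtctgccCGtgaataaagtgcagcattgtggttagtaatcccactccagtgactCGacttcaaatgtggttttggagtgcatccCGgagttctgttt
The stretches hold 5, 7, 11 and 7 CpGs. In the whole windows of 300 bases Mfap2 had 6 CpGs at its outer and 22 at its inner start, and Fbln1 had 12 and 24. Ltbp1 had 17 CpGs at its outer and 7 at its inner start, and the window of Fbln2 held 10. The CpG numbers of the lower members with a window overlapped those of Ltbp1, the only higher member. Mfap4 and Fbn2 had no window and the start used in these cells was not measured, so no link of CpG number with direction can be read from this. The median over 32851 windows was 7, with quartiles of 3 and 20. The TATA box motif TATAAA was found on neither strand in any of the 10 windows and in 13.6% of all windows. DNA methylation itself was not measured on these arrays.

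Microfibril-associated glycoproteins coat the fibrillin scaffold. Mfap4, a fibrinogen-domain glycoprotein that binds elastin and collagen, had log2 levels of 9.81 and 9.73 on the arrays of control replicate 1 and of 10.01 and 9.97 on those of control replicate 2. Its levels were 4.78 and 4.53 in 5-aza-dC replicate 1 and 4.46 and 4.43 in replicate 2. The groups did not overlap and the 4 treated arrays lay at or near the detection limit, since Mfap4 was detected on 1 of them and the dimmest detected probe of each such array lay at 4.73 to 4.81. On the raw scale the same probe read 950.0 to 1055 signal units in control and 50.9 to 54.7 in 5-aza-dC. The log2 difference was -5.33 ± 0.13 (SE, n = 2 per group), the lowest of all 9502 genes tested as measured at the offset of 16. Its rank under other handling of background was not examined. The size of this difference moved with the treatment of background. It was 17.0-fold with an offset of 50 in place of 16 and 16.9-fold with the deposited normalised values, and the gene was lower in both.

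Mfap2, which encodes MAGP-1, a small glycoprotein bound along fibrillin microfibrils, was read by 3 probes that were detected on every array. At the brightest of them the levels were 10.62 and 10.72 in control replicate 1 and 10.82 and 10.63 in control replicate 2. In 5-aza-dC they were 6.85 and 6.89 in replicate 1 and 7.03 and 7.205 in replicate 2. All treated arrays were thus far below all control arrays but remained above background. The difference was -3.70 ± 0.13 on the log2 scale, which ranked 15 from the lowest of the 9502 genes. The other probes of Mfap2 gave -3.31 ± 0.11 and -3.86 ± 0.14, so that the 3 readings spanned 9.93-fold to 14.5-fold. Treated replicates of Mfap2 differed by 0.25 and control replicates by 0.05. Mfap5, which encodes MAGP-2, the close relative of MAGP-1, had a single probe that was undetected on all 8 arrays, with log2 levels between 4.22 and 4.36.

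**Figure D2:**
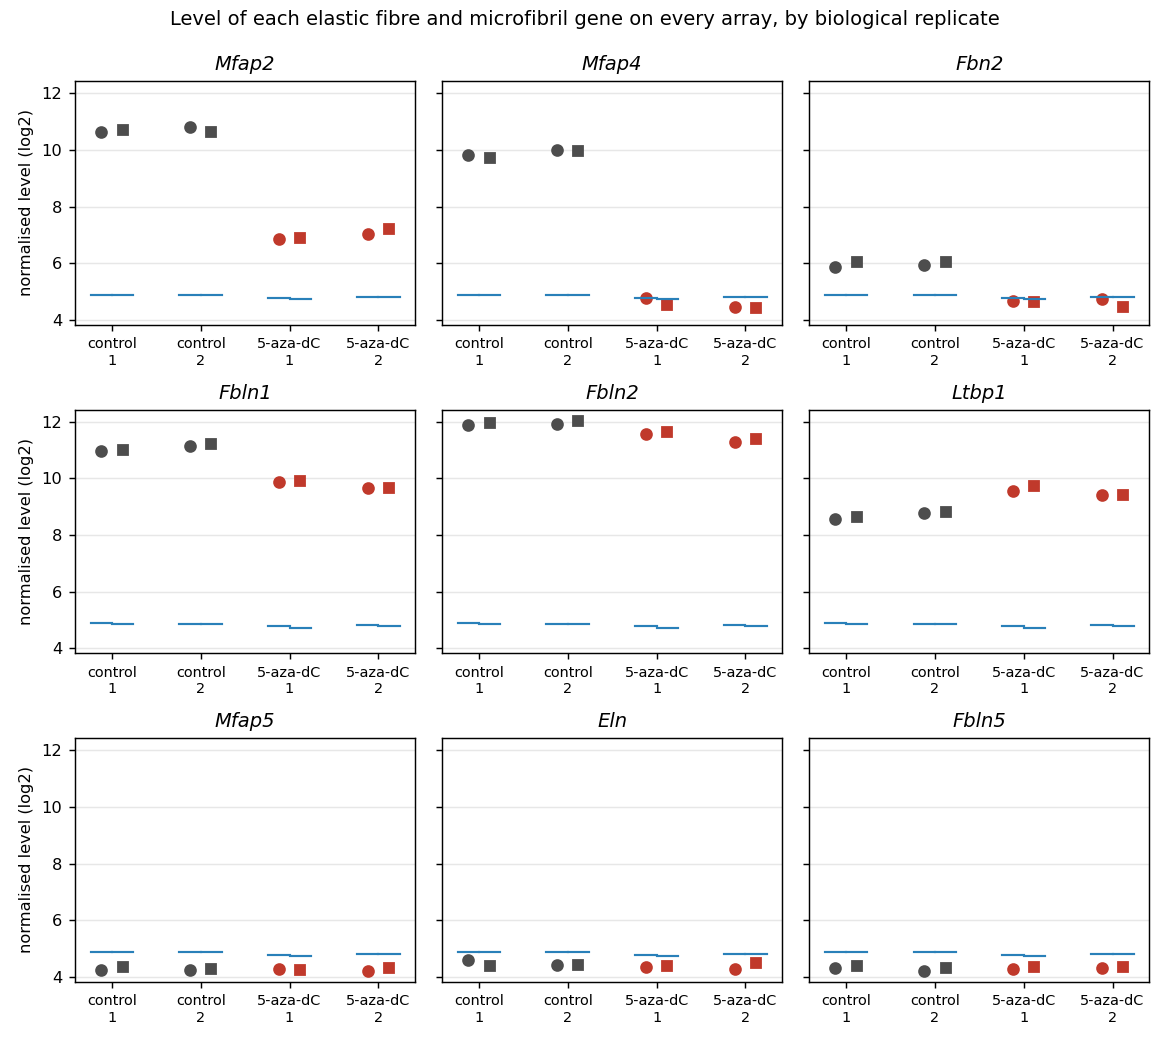
Normalised log2 level (y axis) of 9 genes on each array, by group and biological replicate (x axis, grey for control and red for 5-aza-dC, circles and squares for technical arrays 1 and 2), at the brightest probe of each gene. Blue lines mark the detection limit of each array (its dimmest detected probe), and Mfap5, Eln and Fbln5 lie below them on every array.

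The fibrillins form the microfibril itself, and elastin the cross-linked core of the elastic fibre. Fbn2, the fibrillin most associated with development, read 5.86 and 6.05 in control replicate 1 and 5.95 and 6.03 in control replicate 2. Its levels in 5-aza-dC were 4.66 and 4.62 in replicate 1 and 4.74 and 4.46 in replicate 2. It was detected on all 4 control arrays and on none of the 4 treated arrays, so that the groups did not overlap and the treated level is known only as below detection. The measured difference was -1.36 ± 0.09, and with the treated arrays raised to the lowest detected level it was at least 2.29-fold on this scale, a bound that holds for the offset of 16 alone. Being dim, Fbn2 also shrank with background handling, to 1.65-fold with an offset of 50 and to 1.70-fold in the deposited values. Fbn1, the main fibrillin of adult tissue, was not analysed here because no probe carried its symbol. Eln, the gene of tropoelastin, read 4.39 to 4.60 in control and 4.26 to 4.48 in 5-aza-dC at its 1 probe and was undetected on every array.

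Fibulins were measured at higher signals. Fbln1, a fibulin of elastic fibres and basement membranes that binds fibronectin, read 10.97 and 10.99 in control replicate 1 and 11.14 and 11.21 in control replicate 2. The levels were 9.87 and 9.90 in 5-aza-dC replicate 1 and 9.65 and 9.67 in replicate 2. Every treated array was below every control array, by more than the 0.20 between control replicates and the 0.225 between treated replicates. The difference was -1.31 ± 0.14, and 2 further probes of Fbln1 gave -1.21 ± 0.15 and -1.21 ± 0.10. The 3 probes of Fbln1 thus lay within 1 standard error of each other.

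Fbln2, which joins elastin to fibrillin and is abundant in embryonic mesenchyme, read 11.88 and 11.95 in control replicate 1 and 11.92 and 12.05 in control replicate 2. In 5-aza-dC the levels were 11.58 and 11.63 in replicate 1 and 11.29 and 11.41 in replicate 2. The groups did not overlap, and treated replicates differed by 0.25. The difference was -0.47 ± 0.15, with -0.38 ± 0.11 and -0.67 ± 0.16 at its 2 other probes, 1 of which is annotated to a different transcript of the gene. Fbln2 was no longer called without control replicate 1 (log2 difference -0.51), without control replicate 2 (-0.44) or without 5-aza-dC replicate 2 (-0.35), nor with the deposited values (-0.42), the replicate number as a block or no detection filter. Fbln5, a fibulin needed for elastic fibre assembly in mice, read 4.22 to 4.39 in control and 4.29 to 4.34 in 5-aza-dC and was undetected on all 8 arrays.

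Ltbp1, which tethers latent TGF-beta to the matrix, went the other way. At its brightest probe it read 8.58 and 8.65 in control replicate 1 and 8.78 and 8.82 in control replicate 2. The levels were 9.57 and 9.72 in 5-aza-dC replicate 1 and 9.42 and 9.41 in replicate 2, so that all treated arrays were above all control arrays. The difference was 0.83 ± 0.13. Ltbp1 had 6 probes in all. The single probe annotated to another transcript was detected on all 8 arrays and gave 0.58 ± 0.16, while another probe of the first transcript, detected on 1 control array and 2 treated arrays, gave -0.05 ± 0.16 with overlapping groups. The remaining 3 probes were undetected on every array. Over the 3 kept probes of Ltbp1 the mean difference was 0.45.

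**Figure D3:**
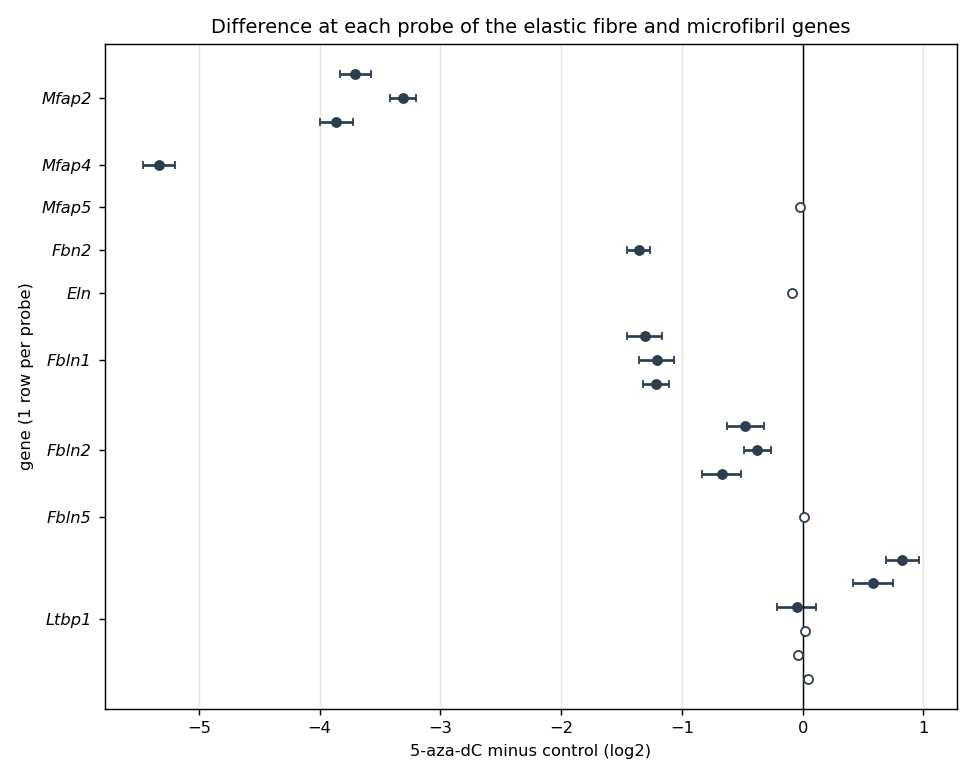
Log2 difference, 5-aza-dC minus control (x axis), at each of the 20 probes of 9 elastic fibre and microfibril genes (y axis, 1 row per probe). Bars are standard errors (n = 2 per group) of a fit over all kept probes, and open circles are the 6 probes undetected on every array. All probes of Mfap2, Fbln1 and Fbln2 lie below 0.

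Technical arrays of a replicate differed by a median of 0.07 and at most 0.27 log2 units over the 6 tested members. Replicates of the groups did not overlap for any of the 6, as was the case for 76.5% of all genes tested. The genes whose levels over the 8 arrays ran closest to Mfap4 were AW551984 and Ogn, which encodes the leucine-rich proteoglycan osteoglycin, with root mean square differences of 0.26 and 0.27 log2 units between centred profiles. Col3a1, a fibrillar collagen, Srpx2 and Slc40a1, the iron exporter ferroportin, followed at 0.44, 0.46 and 0.47. All 5 were lower in 5-aza-dC, by 21.1-fold to 29.7-fold, which follows from how they were picked, since a profile close to that of Mfap4 must hold a large fall. This measure compares profiles over 8 arrays in 2 groups and is given as a description.

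Other genes of the elastic fibre pathway were then examined by role. Of 52 genes listed 45 were on the array and 37 were tested. Calls were made for 24 of them, 16 lower and 8 higher (limma, adjusted p over all genes), where 52% of all genes were called, 25.7% lower and 26.3% higher. The counts by role below are to be read against the same shares, and with so few genes a role nothing particular to a role is read from them. The median log2 difference of the 37 was -0.26, with or without bounds for the 3 genes undetected in control, against -0.02 over all genes. These 3, Thsd4, Adamtsl2 and Ctsk, are among the 8 called higher. They passed the detection filter through the treated arrays alone, and their calls use measured control levels below detection. The counts changed to 11 lower and 5 higher without control replicate 1 and to 9 lower and 8 higher without control replicate 2. Called differences of more than 2-fold as measured were found for Lox, Efemp1, Emilin1, Tgfb3 and Mmp2, which were lower, and for Mfap3l and Thsd4, which were higher. All these totals include 3 tested genes that were listed for an Mfap symbol and not for a role in the pathway. Of these Mfap3l was called higher, Mfap3 was called lower and Mfap1b was not called.

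Of the 6 cross-linking genes tested 4 fell, 1 rose and 1 did not pass. Lox, the copper enzyme that oxidises lysines of elastin and collagen, fell 3.84-fold (log2 difference -1.94 ± 0.19, adjusted p = 0.0006004). Its relatives Loxl2 and Loxl1, the latter tied to elastic fibres in mice, fell 1.78-fold and 1.73-fold. Leaving out either control replicate ended the call for Loxl1 (adjusted p = 0.0919 without the first, 0.167 without the second). The copper transporter gene Atp7a fell 1.29-fold, and its call was lost in the same way (adjusted p = 0.105 and 0.305). Loxl4 rose 1.56-fold (adjusted p = 0.00691), and Loxl3 did not pass (log2 difference -0.26, adjusted p = 0.114).

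Among the relatives of the fibulins and binding proteins, Efemp1, which encodes fibulin-3, fell 3.14-fold (log2 difference -1.65 ± 0.11, adjusted p = 0.0001705), while Fbln7 lay near background and did not pass (-0.08 ± 0.09). Ltbp3, a further binding protein of latent TGF-beta, fell 1.79-fold, with -0.84 and -0.82 at its 2 probes, and the call ended without control replicate 2 (adjusted p = 0.0532). Ltbp4, which guides elastic fibre assembly together with fibulins, did not pass (-0.26 ± 0.11, adjusted p = 0.0882). It was called with median scaling in place of quantile normalisation (-0.37, adjusted p = 0.0311). Ltbp2 did not pass the detection filter, and the difference between Ltbp1 and its relatives was not tested. Emilin1, a glycoprotein at the interface of elastin and microfibrils, fell 2.92-fold (adjusted p = 0.000346), whereas Emilin2 rose 1.87-fold (adjusted p = 0.00102) and Mmrn2 did not pass (0.06 ± 0.10).

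In the role of microfibril assembly and processing 2 genes undetected in control were called higher, 1 gene fell and 1 did not pass. Thsd4, which encodes the microfibril-promoting protein ADAMTSL6, was undetected in control and at least 1.89-fold higher. Its call was made on the difference as measured (1.09 ± 0.13, adjusted p = 0.00126). Adamtsl2, which binds microfibrils and Ltbp1, was likewise undetected in control and at least 1.12-fold higher. The call for Adamtsl2 also used the measured control level and was lost without control replicate 1 (log2 difference 0.40). Adamtsl4 fell 1.71-fold (adjusted p = 0.00163), and Furin, the protease that trims profibrillin, did not pass (0.48 ± 0.17, adjusted p = 0.0550). Without 5-aza-dC replicate 1 the difference of Furin was 0.69.

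Elastin receptors and elastin-cleaving proteases gave 4 lower and 2 higher genes of 8 tested. Mmp2, a gelatinase that also cleaves elastin, fell 2.09-fold, and the call ended without control replicate 2 (adjusted p = 0.0601). Mmp9, the other gelatinase, fell 1.79-fold (adjusted p = 0.00151) and Mmp14, the membrane protease that activates Mmp2, 1.69-fold, the latter not called without control replicate 1 (adjusted p = 0.0859) or 2 (adjusted p = 0.157). Glb1, whose splice product is the elastin-binding protein, fell 1.85-fold (adjusted p = 0.00151). The integrin gene Itgav rose 1.52-fold. Without control replicate 1 it was still higher (log2 difference 0.44 against 0.60) but no longer called. Itgb3 did not pass (0.10 ± 0.11). Ctsk, a cathepsin that degrades elastin, was undetected in control and at least 1.15-fold higher. The call for Ctsk used the measured control level and was lost without control replicate 1 (log2 difference 0.43).

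The growth factor stored on microfibrils was represented by 9 tested genes, with 3 called lower and 1 higher. The ligand gene Tgfb3 fell 2.26-fold (log2 difference -1.18 ± 0.11, adjusted p = 0.0006136) and Tgfb1 rose 1.78-fold (0.83 ± 0.11, adjusted p = 0.00195), while Tgfb2 did not pass (0.02 ± 0.12). The receptor gene Tgfbr2 fell by 0.997 on the log2 scale, with -0.53 at its other probe, and Tgfbr1 did not pass (0.15 ± 0.17). Without 5-aza-dC replicate 2 the difference of Tgfbr1 was 0.38. Smad3, a signal transducer of these receptors, fell 1.33-fold, and leaving out either control replicate ended the call (adjusted p = 0.0829 and 0.305).

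Genes that carry the Mfap symbol need not encode matrix proteins. Mfap3l, which encodes a membrane protein, rose 3.91-fold (log2 difference 1.97 ± 0.10, adjusted p = 8.714e-05), with 0.81 at its other kept probe. Mfap3 fell by 0.59 on the log2 scale, with -0.22 at its other probe, and was not called with either control replicate left out (adjusted p = 0.0524 and 0.136). Mfap1b, 1 of a pair of near-identical genes of a splicing factor whose signals may not be separable, did not pass (-0.25 ± 0.15).

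**Figure D4:**
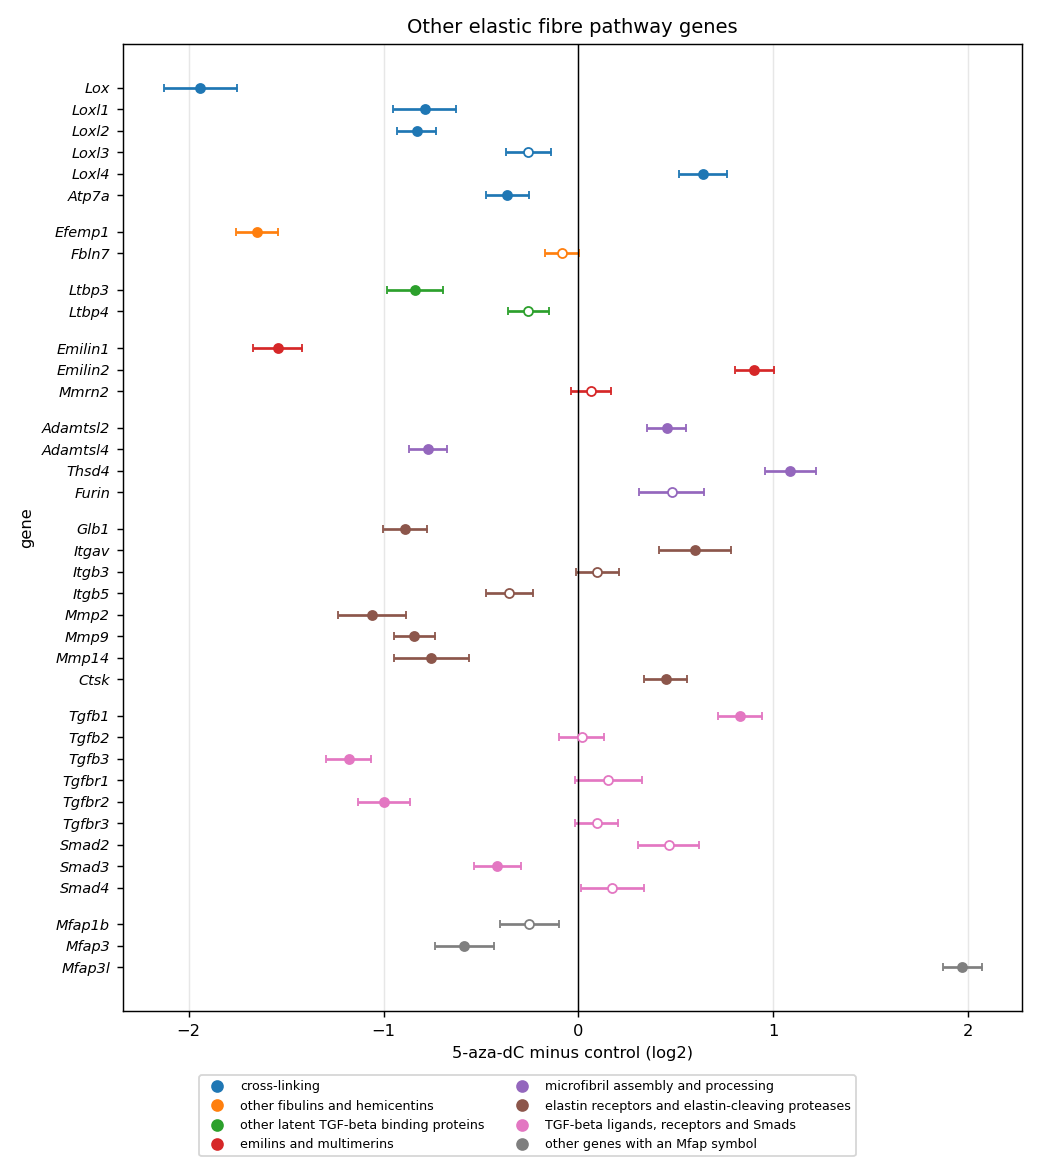
Log2 difference, 5-aza-dC minus control (x axis), of 37 further genes listed with the elastic fibre pathway (y axis), coloured by role, with standard errors (n = 2 per group). Mfap1b, Mfap3 and Mfap3l were listed for their symbol and not for a role in the pathway. Filled circles were called at an adjusted p under 0.05 and open circles were not, with Lox at -1.94 and Mfap3l at 1.97 as the outermost values.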

How the data were processed

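Total RNA of 8 samples (2 groups, 2 biological replicates each, 2 technical arrays per replicate) was hybridised to Illumina bead arrays. Per the file headers, the deposited signals are linear intensity values that were not normalised, each with a detection p-value. The authors made the deposited normalised intensity values with lumi (background subtraction, variance stabilisation and robust spline, version not given in the sources used here), which served as an alternative.

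In R 4.3.3 with limma 3.58.1 (and the data.table package, version 1.17.8), signals were corrected and quantile-normalised with neqc (offset 16), which estimated background from the detection p-values, and put on the log2 scale. Probes detected at p under 0.05 on 2 or more of the 8 arrays were kept (14308 of 25697), and each gene was read by its brightest kept probe. Symbols came from the probe table and RefSeq (by Entrez identifier for 23962 probes, by accession for 9, unchanged for 7), and 1719 probes are not listed there. Means over technical arrays entered the comparison of 5-aza-dC with control by limma (two-sided, moderated variance with trend, 2 residual degrees of freedom), with Benjamini-Hochberg adjustment over 9502 genes. Where no array of a group detected a probe, its level on each of those arrays was set no lower than that of the dimmest detected probe, and the fold is given as "at least", on the scale of offset 16 alone. Calls and adjusted p-values came from the measured levels and not from these bounds. Standard errors of further probes of a gene, and those drawn for single probes, came from the same model fitted over all 14308 kept probes. The fit over genes was tested on simulated data.

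Members and lists were chosen with earlier results of these data known. Every member was named. Of the other pathway genes, those called and more than 2-fold different were named, with up to 3 further per role in list order. Loxl4, Atp7a, Mmp9, Mmp14, Ctsk, Tgfbr2 and Smad3 were named beyond this after their values were seen. The 5 genes nearest to the member with the largest difference were named by root mean square difference. Alternatives covered scaling, offset, detection filter, technical arrays entered singly, the replicate number as a block, each replicate left out, the deposited values and the mean over probes.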

Additional observations from a re-analysis of the deposited data

How the results depend on the processing

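All 6 tested genes of the elastic fibre and microfibril list kept their direction under the alternatives that can move it (scaling, offset, each replicate left out, the deposited values and, where several probes were kept, their mean). Filters, blocks and technical arrays entered singly leave the difference itself as it is. Their log2 differences ran from -5.44 to -4.08 for Mfap4, from -3.83 to -3.31 for Mfap2, from -1.39 to -0.73 for Fbn2, from -1.42 to -1.19 for Fbln1, from -0.60 to -0.35 for Fbln2 and from 0.45 to 0.94 for Ltbp1. Their median was -0.9997 with an offset of 50, -0.9951 with the deposited values and -0.47 without the detection filter, which adds the 3 undetected genes. Between 4 and 5 members were called lower and 1 higher under the alternatives with a test, which leave out the mean over probes, Fbln2 being the gene that was lost. With 1 replicate left out, 1568 to 2943 genes in all were called higher and 1676 to 2963 lower, against 2497 and 2444, and 5 to 10 other pathway genes higher and 9 to 18 lower, against 8 and 16.

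With the replicate number as a block, 2177 genes were called higher and 2208 lower, 4 members were lower and 1 higher, and 14 other pathway genes were lower, since Atp7a (adjusted p = 0.0873) and Smad3 (adjusted p = 0.0743) joined Fbln2 in losing their calls. Same-numbered samples deviated in opposite directions (r = -0.63 across genes, which are not independent replicates). A crossed replicate block, added after the data were seen, gave 3043 higher and 3128 lower genes. The number of arrays and a treated signal near background limit the size of the differences of Mfap4 and Fbn2.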
